A study of Mus musculus with 2 samples.

Results

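Inside a CD150-high CD48-low gate, which is the surface profile used to enrich mouse haematopoietic stem cells, cells with transcripts of Vwf were compared with cells in which none was counted. The members were chosen by measured values. Only cells whose mitochondrial UMIs made up less than 10% and that showed more than 1500 genes were used, and a gate cell lay at or above the 75th percentile of the CD150 tag and at or under the 25th percentile of the CD48 tag of its own library. Gate cells with 2 or more Vwf UMIs are called Vwf-positive and those with 0 Vwf-negative. Of 4688 cells in the matrix, 4068 were kept, 3986 of the kept cells had tags and 555 fell in the gate, of which 213 were Vwf-positive, 234 were Vwf-negative and 108 had 1 Vwf UMI and were not compared.

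The cells were LSK cells (lineage-negative, Sca-1-positive, c-Kit-positive bone marrow cells, the fraction that holds stem cells and the earliest progenitors) of C57BL/6JRj mice. An old group was 22 to 28 months and a young group 3 to 5 months of age, and the mice of each group went into 1 library, so that no value here has a replicate. Transcripts and antibody tags of each cell were counted by unique molecular identifiers (UMIs) in CITE-Seq. A barcode ends in suffix 1 or 2 for its library, no barcode sequence occurs with both suffixes, and no label says which suffix is which age. Old and young cells are therefore not compared, no test was run, and values are given for both libraries together and within each suffix. Intervals are 95% intervals for counting error only, from the exact Poisson distribution for a level, from the exact binomial (Clopper-Pearson) for a share, from the conditional binomial for a ratio, and from order statistics for a median.

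Von Willebrand factor, the product of Vwf, is a large adhesive glycoprotein that megakaryocytes and endothelial cells store and release. It tethers platelets to injured vessel walls through the GPIb complex and carries coagulation factor VIII in blood. In the stem cell compartment, Vwf transcripts are known from cells that favour platelet and myeloid output. On the GRCm38 assembly, RefSeq places Vwf on chromosome 6 from 125552948 to 125686679.

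The gate was checked against transcripts of stem cells and progenitors. Slamf1, which encodes CD150, stood at 50.0 CPM (the UMIs of a gene scaled to a fixed total) in the gate and 6.11 CPM in the other kept cells with tags, a ratio of 8.18 (7.08 to 9.46). Cd48 stood at 1.33 against 98.0 CPM. The stem cell genes Fgd5, Procr and Mecom were 3.18, 2.99 and 2.62 times as high in the gate, and Flt3, a receptor of progenitors, stood at 5.45 against 156 CPM. Hlf, a transcription factor of stem cells, differed less, with a ratio of 1.23 (1.18 to 1.28), at 1.07 (0.997 to 1.14) within suffix 1 and 1.52 (1.44 to 1.60) within suffix 2. The gates of the libraries differed. Slamf1 stood at 16.9 CPM in the gate of suffix 1 and 64.2 CPM in that of suffix 2, and Cd34, a surface protein of progenitors, at 202 and 40.3 CPM, which was 0.380 and 0.0983 times its level in the other cells. Since each library set its own percentiles, the gate was not the same in tag counts. It began at 40 CD150 tags and ended at 224 CD48 tags in suffix 1, and the limits were 407 and 42 tags in suffix 2.

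The 2 libraries contributed unequally. In suffix 1, 17 of 172 gate cells were Vwf-positive (9.88%, 5.86% to 15.4%), and in suffix 2 it was 196 of 383 (51.2%, 46.0% to 56.3%). In suffix 1, 135 gate cells had 0 Vwf UMIs, 20 had 1, 8 had 2, 7 had 3 and 2 had 4. In suffix 2, 99 had 0, 88 had 1, 85 had 2, 59 had 3, 28 had 4, and the rest had up to 10. Just inside the limit of the class thus lay 93 cells with 2 UMIs, and just outside it the 108 cells with 1. As 196 of the 213 positive cells came from suffix 2 and 135 of the 234 negative cells from suffix 1, a pooled difference between the classes cannot be told apart from a difference between the libraries, and the within-suffix values are the ones to read.

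**Figure D1:**
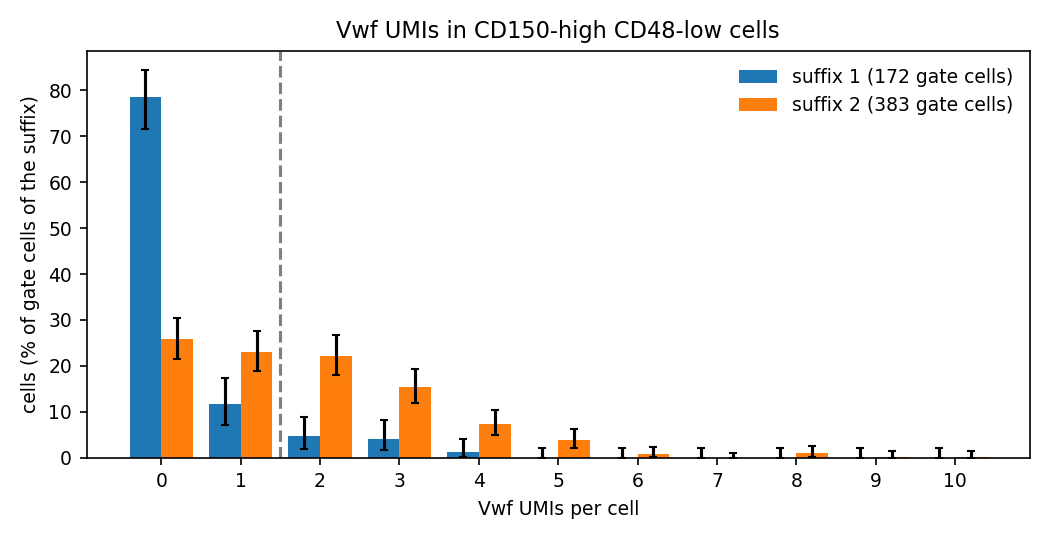
Vwf UMIs per cell in the CD150-high CD48-low gate, as the percentage of the gate cells of each barcode suffix (bars, with 95% Clopper-Pearson intervals). The dashed line separates the cells with 2 or more UMIs, which were 9.88% of gate cells in suffix 1 and 51.2% in suffix 2.

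Vwf was concentrated around the gate. It stood at 101 CPM in the gate (93.5 to 108), 43.0 CPM in a ring of 885 cells that lay within the 50th percentiles of both tags but outside the gate, and 0.940 CPM in the opposite corner of 399 CD150-low CD48-high cells. The share of cells with 2 or more UMIs was 38.4%, 14.9% and 0.251% in these places, although the corner cells were deeper, with a median of 22777 UMIs against 13334 in the gate. With each cell thinned to 8000 UMIs, the share was 20.2% in the gate (534 cells, 21 shallower ones left out, and 21.5% in another random thinning of the same cells) and 8.55% in the ring (842 cells, 43 left out). None of 398 thinned corner cells was positive. Taking 3 counts as the limit that a count of 0 allows, the share could reach 0.754%, and the Clopper-Pearson upper limit was 0.923%. The order was the same within each suffix, with 4.38%, 2.56% and 0 of 109 cells in suffix 1 and 27.01%, 11.4% and 0 of 289 cells in suffix 2 after thinning. In suffix 1 the intervals of gate and ring overlapped.

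A cell that is sequenced more deeply is more likely to show 2 Vwf UMIs. Vwf-positive cells had a median of 14102 UMIs in suffix 1 and 14386 in suffix 2, against 13040 and 11948 in Vwf-negative cells. Once thinned to 8000 UMIs, the classes had medians of 2819 and 2817 detected genes in suffix 1 and of 2724 and 2738 in suffix 2. The median mitochondrial share lay between 6.52% and 6.68% in the compared classes. Scrublet called 1 gate cell a doublet, a Vwf-negative cell of suffix 2.

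Of the antibody tags, CD150 had medians with intervals apart between the classes in both suffixes. The median CD150 tag count, one of the values that chose the gate, was 1025 in Vwf-positive and 131 in Vwf-negative cells of suffix 1, and 855 (810 to 920) against 654 (597 to 687) in suffix 2. All 17 Vwf-positive cells of suffix 1 lay above the median CD150 count of its gate cells, and none of the 86 at or under it was positive, for which 3 counts give a limit of 3.49% and Clopper-Pearson one of 4.20%. In suffix 2, 63.4% (56.1% to 70.2%) of the cells above the median CD150 count were Vwf-positive, against 39.1% (32.1% to 46.3%) of the others. CLCA3A1, a surface protein read through an antibody against the PE dye, took no part in the choice of cells. Its median tag count was 78 in Vwf-positive and 21 in Vwf-negative cells of suffix 1 (44 to 137 against 15 to 30), and 228 against 181 in suffix 2 (207 to 248 against 158 to 219), where the intervals overlapped. The pooled difference of 0.54 on the log10 scale (0.30 to 0.78) shrank to 0.10 (-0.02 to 0.20) within suffix 2. Unmapped tags, which match no antibody, differed in the same direction, with medians of 62 against 30 in suffix 1 and 44 against 32 in suffix 2, and their part in the CD150 and CLCA3A1 differences was not tested. In suffix 2 the ratio of the medians was 1.38 for unmapped tags, 1.31 for CD150 and 1.26 for CLCA3A1. CD48, which also chose the gate, had medians of 43 against 117 tags in suffix 1, a log10 difference of -0.43 (-0.65 to 0). In suffix 2 they were 22.5 against 20, where the log10 difference was 0.05 (-0.08 to 0.17).

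**Figure D2:**
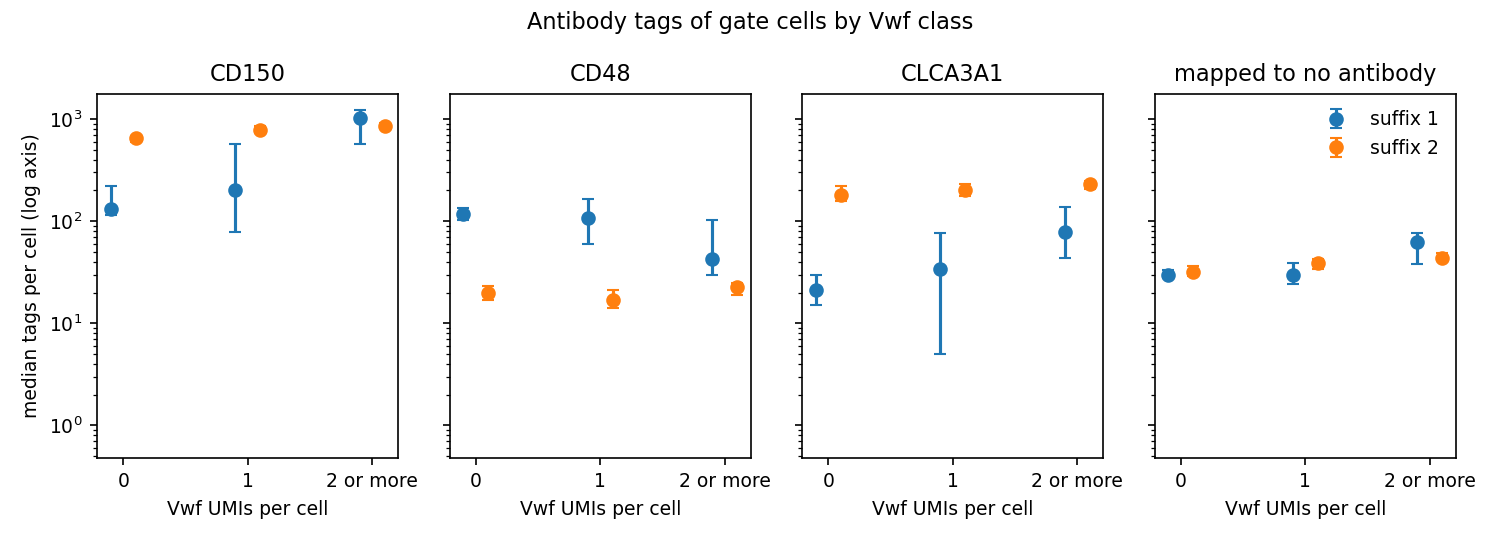
Median tags per cell (log axis) of gate cells with 0, 1 and 2 or more Vwf UMIs for the antibodies against CD150, CD48 and CLCA3A1 and for tags that mapped to no antibody, with 95% order-statistic intervals, by barcode suffix. In suffix 2 the CLCA3A1 median went from 181 to 228 tags with overlapping intervals, while unmapped tags went from 32 to 44.

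Genes were compared by the summed UMIs of each class, and a gene was called where the CPM ratio, with 10 CPM added to both classes, was 1.5-fold or more in the same direction pooled and within both suffixes. Of 8919 genes with enough UMIs, 114 (1.28%) were 1.5-fold or more higher and 145 (1.63%) lower in Vwf-positive cells when both libraries were pooled. Within suffix 2, 69 (0.774%) were higher and 52 (0.583%) lower. Within suffix 1, where 17 positive cells held 219815 UMIs, 758 (8.5%) were higher and 1210 (13.6%) lower. The intervals of the suffixes lay on opposite sides of 1 in 25 of the compared genes (0.28%), among which were 6 of 142 genes of the lists. By all 3 readings together, 5 genes (0.0561%) were higher and 11 (0.123%) lower. With 8.5% and 13.6% of genes past the fold in suffix 1 alone, some can meet all 3 readings by counting error. How many would do so if the suffixes were unrelated was not tested. The higher genes were Sox18, Gimap4, Chil5, Pfkp and Chst2, and the lower ones Pf4, Tgfbi, Tnfrsf18, Ctla2a, Spi1, Vim, Serpinb1a, Rabgap1l, Ikzf2, Il17ra and Ms4a6c. Ms4a6c fell outside the limit of 10 lower genes fixed for naming and is included for completeness.

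The promoters of 4 of the 16 genes are shown as examples of the 6 that carry matches to binding motifs of factors measured here, and were chosen after the matches were known. Chil5 (SOX) and Tnfrsf18 (PU.1) are the others. The windows run from 250 bases before to 50 after the transcription start in RefSeq (GRCm38.p6), are written in the direction of the gene, and have in capitals each match on either strand to 4 motifs. Factors of the GATA family, among them the product of Gata2, are known to bind AGATAA. The motif searched for PU.1, the product of Spi1, was GAGGAA. For the TEAD factors, which are the DNA-binding partners of TAZ, the letters were GGAATG. For the SOX family, to which the product of Sox18 belongs, they were AACAAT. The PU.1 and TEAD motifs can share the letters GGAA. The windows are Gimap4 at chr6:48684328-48684627 (plus strand), Pf4 at chr5:90772185-90772484 (plus), Ctla2a at chr13:60936576-60936875 (minus) and Vim at chr2:13574061-13574360 (plus).
Gimap4: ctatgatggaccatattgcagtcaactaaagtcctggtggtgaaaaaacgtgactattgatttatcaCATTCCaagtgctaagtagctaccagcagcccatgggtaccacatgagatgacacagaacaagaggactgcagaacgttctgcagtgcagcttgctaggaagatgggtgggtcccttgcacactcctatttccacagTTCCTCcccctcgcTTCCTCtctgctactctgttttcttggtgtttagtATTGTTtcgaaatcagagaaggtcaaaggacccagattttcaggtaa
Pf4: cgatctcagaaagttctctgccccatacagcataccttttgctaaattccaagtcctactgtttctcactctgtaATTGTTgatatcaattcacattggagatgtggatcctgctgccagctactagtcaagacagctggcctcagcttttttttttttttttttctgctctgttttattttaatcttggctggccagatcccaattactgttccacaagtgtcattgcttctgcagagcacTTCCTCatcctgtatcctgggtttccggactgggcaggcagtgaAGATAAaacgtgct
Ctla2a: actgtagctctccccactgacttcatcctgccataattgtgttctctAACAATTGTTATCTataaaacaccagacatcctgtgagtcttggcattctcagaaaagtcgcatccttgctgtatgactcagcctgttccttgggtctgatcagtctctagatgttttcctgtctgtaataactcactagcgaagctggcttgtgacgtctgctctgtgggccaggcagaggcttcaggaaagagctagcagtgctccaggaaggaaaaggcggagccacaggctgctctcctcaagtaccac
Vim: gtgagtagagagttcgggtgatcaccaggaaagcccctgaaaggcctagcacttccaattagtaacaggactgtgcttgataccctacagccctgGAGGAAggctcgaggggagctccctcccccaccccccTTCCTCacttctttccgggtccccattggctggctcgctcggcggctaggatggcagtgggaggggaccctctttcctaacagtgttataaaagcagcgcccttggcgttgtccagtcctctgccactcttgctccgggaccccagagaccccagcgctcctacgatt

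Of all 32851 promoters in the table, 11.2% held the GATA motif, 28.3% the PU.1 motif, 14.7% the TEAD motif and 10.7% the SOX motif. Of the 4 higher genes with a promoter there, 0, 1, 1 and 2 held them in that order, and of the 7 lower genes 2, 3, 0 and 2. Gimap4 held 2 PU.1 matches, at bases -46 and -32 from the start, and Vim 2, at -155 and -118. Ctla2a had a second RefSeq start, whose window held no match. A match is a description of the letters and no evidence of binding. Vwf, Sox18, Spi1, Serpinb1a, Ikzf2 and Il17ra were not matched to a promoter.

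Among the higher genes, Sox18 encodes a transcription factor of vascular endothelium. It had 7 UMIs in Vwf-positive and 12 in Vwf-negative cells of suffix 1, or 31.8 against 6.72 CPM, and 90 against 15 UMIs in suffix 2, or 30.9 against 12.5 CPM. The ratios were 4.74 (1.58 to 13.1) and 2.47 (1.42 to 4.60). The calling rule fixed the direction of all called genes within each suffix, and their intervals come from the counts that chose them. Chst2, a sulfotransferase that modifies N-acetylglucosamine, stood at 27.3 against 7.28 CPM in suffix 1 and 35.0 against 20.0 CPM in suffix 2, with intervals above 1 in both. Pfkp, the platelet-type phosphofructokinase of glycolysis, stood at 63.7 against 35.9 CPM in suffix 1, a ratio of 1.78 (0.920 to 3.20), and at 57.7 against 27.5 CPM in suffix 2, a ratio of 2.10 (1.44 to 3.14). Its interval in suffix 1 included 1. The same held for Gimap4, a GTPase of the immunity-associated family, at 2.71 (0.636 to 8.93) and 2.68 (1.37 to 5.84), and for Chil5, a chitinase-like gene, at 2.54 (0.727 to 7.25) and 1.91 (1.29 to 2.92). Chil5 belongs to a family of near-identical genes, and how the authors' counting treated reads that fit more than 1 of them was not checked. Of the other Gimap genes, Gimap6 had a ratio of 1.22 (1.07 to 1.39) in suffix 2 and 0.991 in suffix 1, and Gimap1 one of 1.12 (0.980 to 1.28) and 0.743.

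Among the lower genes, Ctla2a, which encodes an inhibitor of cysteine proteases, was the most abundant. It had 73 UMIs in Vwf-positive and 1617 in Vwf-negative cells of suffix 1, or 332 against 906 CPM, and 1202 against 839 UMIs in suffix 2, or 413 against 700 CPM. The ratios were 0.367 (0.286 to 0.464) and 0.590 (0.540 to 0.645). Its near relative Ctla2b, which could share reads with it, had 1 against 21 and 20 against 9 UMIs. Spi1, the gene of the transcription factor PU.1 that directs myeloid and lymphoid fate, stood at 63.7 against 111 CPM in suffix 1 and 53.6 against 102 CPM in suffix 2, with ratios of 0.574 (0.308 to 0.987) and 0.527 (0.413 to 0.673). Its pooled log2 ratio, -0.87, was -0.53 with the gate at the 90th and 10th percentiles, under 1.5-fold, and 0.051 with a stricter cell filter that left 15 positive cells, all of suffix 2. Vim, the intermediate filament protein vimentin, stood at 118 against 344 CPM and at 90.03 against 153 CPM, with both intervals under 1. Ikzf2, the transcription factor Helios, had ratios of 0.390 (0.192 to 0.711) and 0.601 (0.461 to 0.785), and Serpinb1a, an inhibitor of neutrophil proteases with a near relative in Serpinb1b, had 0.166 (0.0198 to 0.615) and 0.459 (0.261 to 0.812). Tnfrsf18 (the receptor GITR), Rabgap1l, Il17ra (a receptor of interleukin 17) and Ms4a6c had intervals under 1 in suffix 2 and including 1 in suffix 1, and the pooled log2 ratio of Rabgap1l turned to 0.29 under the stricter cell filter. Tgfbi had 0 UMIs in the 17 positive cells of suffix 1 and 30 in the negative ones, and 17 against 22 in suffix 2, a ratio of 0.318 (0.159 to 0.628).

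Thinning every gate cell to 8000 UMIs and setting the classes again brought the pooled log2 ratios of Pfkp (0.68 to 0.32), Il17ra (-0.94 to -0.39) and Pf4 (-1.03 to -0.55) under 1.5-fold, while the other 13 stayed past it. As pooled ratios, they cannot be told apart from a difference between the libraries, and thinned ratios within each suffix are not given. Some values rested on single cells. With the highest cell of each class left out, a check added after the data had been seen, the log2 ratios in suffix 1 were 0.29 for Gimap4, 0.45 for Chil5 and 0.33 for Pfkp, in place of 0.75, 0.79 and 0.68, and in suffix 2 they were -0.50 for Serpinb1a and -0.48 for Ms4a6c, in place of -0.67 and -0.60. Pf4, platelet factor 4 and a chemokine of megakaryocytes, changed the most. It had 2 UMIs in Vwf-positive and 77 in Vwf-negative cells of suffix 1, and 43 against 42 in suffix 2, or 14.8 against 35.0 CPM. One Vwf-negative cell held 64.3% of those 42 UMIs, and with the highest cell of each class left out the log2 ratio in suffix 2 was -0.01 in place of -0.86. In the ring cells Pf4 went the other way, with 637 UMIs in 119 Vwf-positive cells of suffix 2 against 204 in 352 Vwf-negative cells, but 73.3% of the 637 came from 1 cell.

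**Figure D3:**
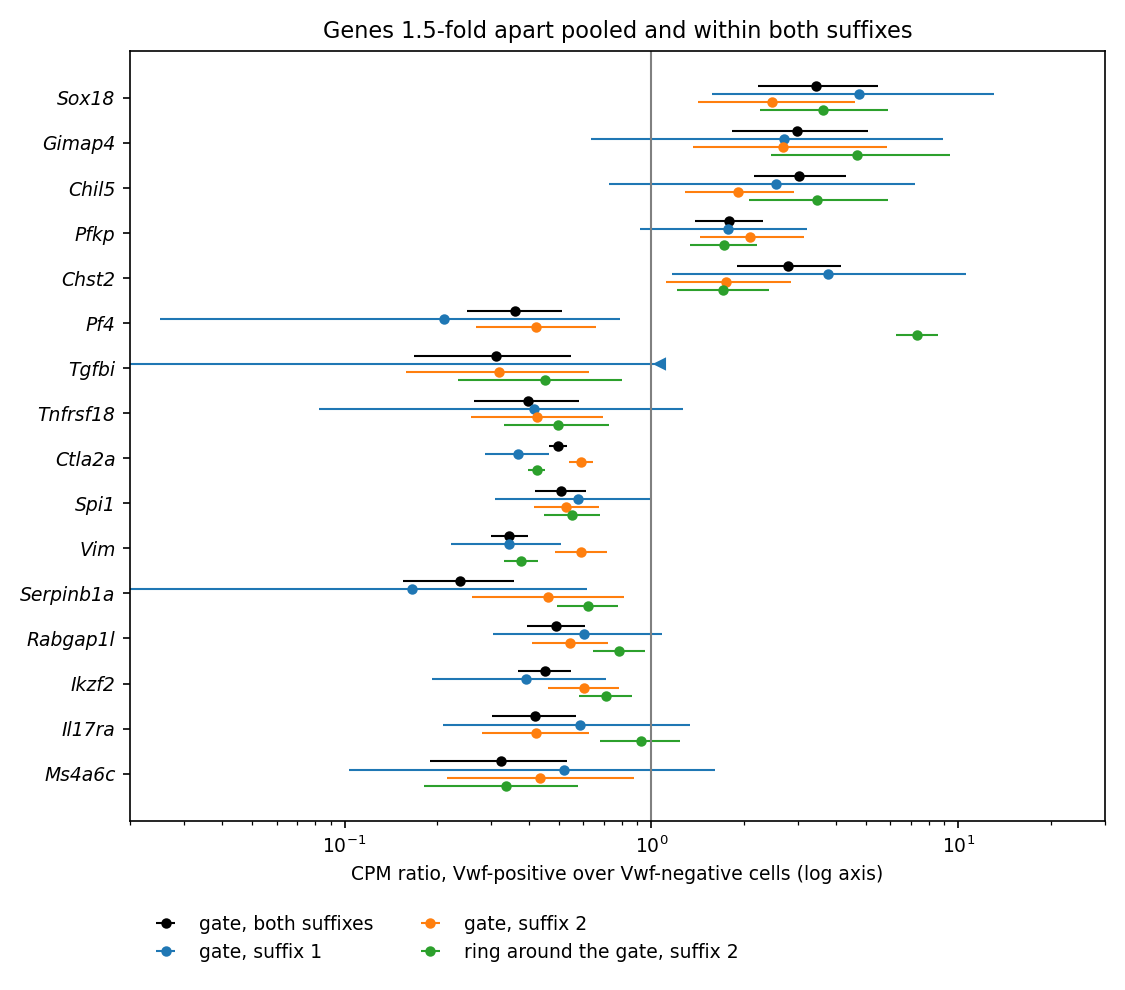
CPM ratio of Vwf-positive over Vwf-negative cells (log axis) for the 16 genes at 1.5-fold or more pooled and within both suffixes, with 95% counting intervals, in the gate and, for suffix 2, in the ring around it. For Tgfbi in suffix 1, where no UMI was counted in positive cells, the arrow marks the upper limit of 1.06. Pf4 lies at 0.422 in the gate and 7.32 in the ring of suffix 2.

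Ring cells share the libraries but not the cells of the gate, and this comparison was added after the gate values had been seen. They held 13 Vwf-positive and 265 Vwf-negative cells of suffix 1 and 119 and 352 of suffix 2. In suffix 2, all 5 higher genes had a ratio above 1 with an interval above 1, at 3.63 for Sox18, 4.69 for Gimap4, 3.47 for Chil5, 1.72 for Pfkp and 1.72 for Chst2. Of the 11 lower genes, 10 went the same way there, among them Ctla2a at 0.423 (0.397 to 0.450), Vim at 0.376 (0.330 to 0.428) and Spi1 at 0.552 (0.446 to 0.678), and Pf4 was the exception. Il17ra, at 0.923 (0.682 to 1.24), had an interval that included 1. In suffix 1, all 5 higher genes and 8 of the 11 lower genes had the direction of the gate, and Pf4, Serpinb1a and Tnfrsf18 did not. Of those in the direction of the gate, Gimap4, Ctla2a and Vim had intervals that left out 1 in suffix 1, and the others did not, such as Pfkp at 1.14 (0.507 to 2.23). Gimap4 rested on 4 UMIs in 2 positive cells there, with 75% of them in 1 cell. Across all compared genes in the ring, 48.1% in suffix 2 and 49.9% in suffix 1 had a log2 ratio above 0.

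The levels followed the number of Vwf UMIs in part. In suffix 2, Ctla2a stood at 700, 494, 468, 430 and 313 CPM in gate cells with 0, 1, 2, 3 and 4 or more Vwf UMIs. The intervals of the first and the last did not overlap, but those cells belong to the classes by which the gene was called. Spi1 stood at 102, 78.6, 54.7, 52.7 and 53.0 CPM. Both were thus lower in the cells with 1 UMI, which no class holds, than in those with 0, although the intervals of Spi1 overlapped there. In suffix 1 Spi1 went the other way, at 111 CPM at 0 and 137 CPM at 1 UMI. Ctla2a was lower there too, at 906 and 869 CPM. The intervals at 0 and 1 UMI overlapped for both genes. In suffix 2, Pfkp went from 27.5 CPM at 0 UMIs to 59.6 CPM at 1 and stayed between 53.0 and 63.0 CPM above that. In suffix 1 it stood at 35.9, 36.4, 28.4, 111 and 41.2 CPM from 0 to 4 or more UMIs, with overlapping intervals at 0 and 1. In suffix 2, Gimap4 stood at 8.34 and 7.77 CPM at 0 and 1 UMIs and at 18.2, 21.3 and 29.6 CPM above. In suffix 1 it had 12 UMIs in the 135 cells at 0 Vwf UMIs and 0 in the 20 cells at 1.

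**Figure D4:**
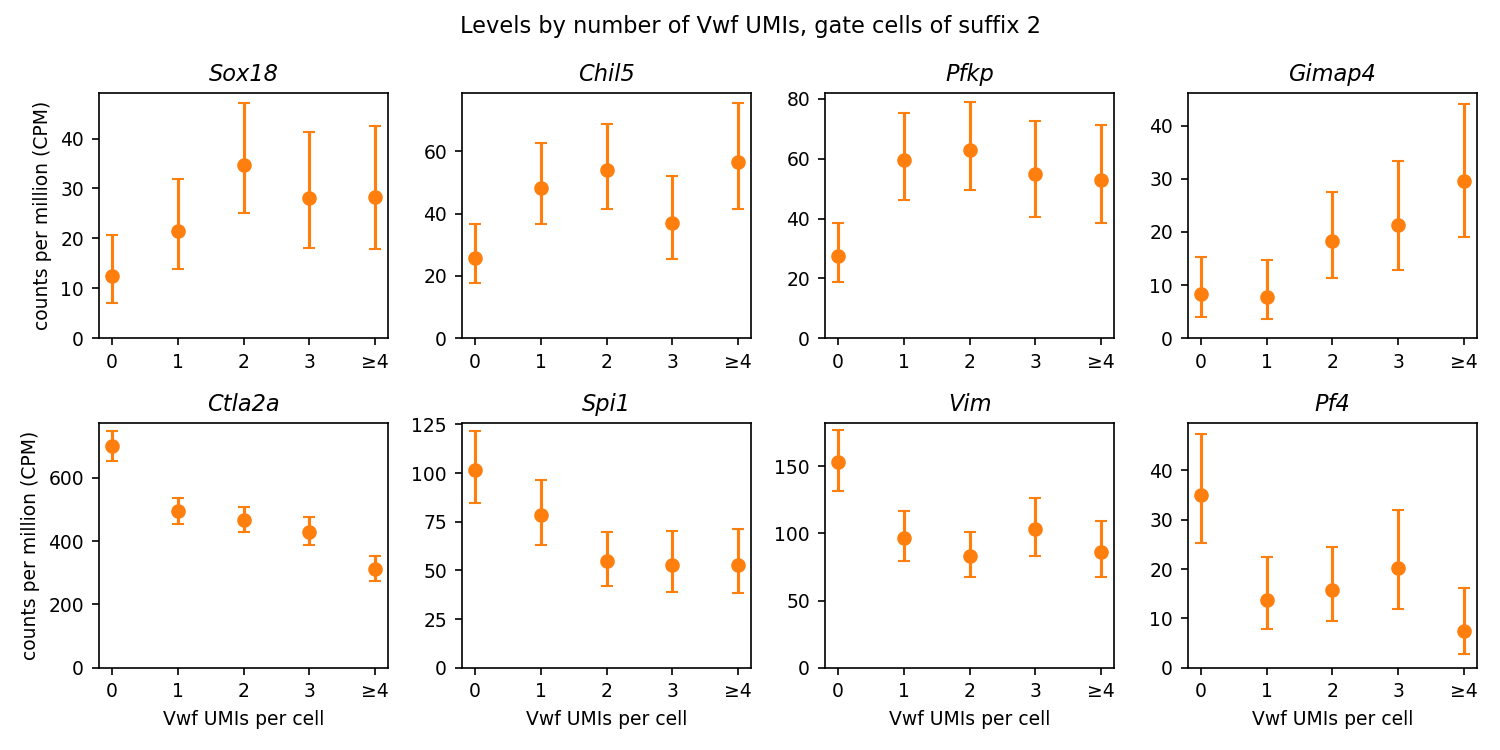
CPM of 8 genes in gate cells of suffix 2 with 0 (99 cells), 1 (88), 2 (85), 3 (59) and 4 or more (52) Vwf UMIs, with 95% Poisson intervals. Ctla2a goes from 700 to 313 CPM, and Pfkp changes between 0 and 1 UMI, from 27.5 to 59.6 CPM.

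Platelet and megakaryocyte genes had no common direction in both suffixes. Of 24 genes listed, 14 had 50 or more UMIs, and their median log2 ratio was 0.09 pooled, 0.30 in suffix 1 and -0.01 in suffix 2, where all 8988 genes with 50 or more UMIs had medians of -0.05, -0.04 and -0.01. In suffix 1, 4 were 1.5-fold higher and 3 lower, where 8.5% and 13.6% of all compared genes were. In suffix 2 none was higher and 2 were lower, where 0.774% and 0.583% of all were. The 2 were Pf4, whose value rested on 1 cell, and Plek (pleckstrin of platelets and leukocytes), at 13.7 against 30.04 CPM. The integrin genes differed unevenly, with Itgb3 at 2.84 (1.02 to 6.998) in suffix 1 and 1.02 (0.760 to 1.38) in suffix 2, and Itga2b at 1.21 (0.699 to 2.20) in suffix 2. Gp9, a subunit of the platelet receptor for von Willebrand factor, had a ratio of 2.00 (1.05 to 3.56) and 1.19 (0.774 to 1.89). Gp6 and Tubb1 had no UMI in the compared cells, and the 6 markers of mature megakaryocytes and platelets together held between 21.6 and 52.1 CPM in the classes. In Vwf-negative cells of suffix 2, 42 of their 60 UMIs were of Pf4, mostly from the 1 cell above.

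In the ring the same 14 genes had medians of 0.83 in suffix 1 and 0.32 in suffix 2, where all genes had medians of -0.00029 and -0.0067. Of them, 8 were 1.5-fold higher and none lower in suffix 1, and 3 higher and 1 lower in suffix 2, where 6.42% and 1.45% of all compared genes were higher and 9.01% and 1.28% lower. There, Gp9 was at 3.82 (2.14 to 6.49) and 1.87 (1.37 to 2.54), and Mmrn1, which encodes multimerin 1 of platelet granules, at 2.52 (1.78 to 3.49) and 1.26 (1.09 to 1.46). In the gate Mmrn1 was at 1.60 (1.12 to 2.25) and 0.983 (0.831 to 1.17). Single cells held much of some counts. In the ring of suffix 1, 1 of 13 positive cells held 57.1% of the UMIs of Itga2b and 53.8% of those of Pf4, and in that of suffix 2 Pf4, with the 73.3% from 1 cell given above, was among the 3 higher. The difference between gate and ring was not tested.

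Of 16 genes that process, store or bind von Willebrand factor, 8 were measured, with medians of 0.54 in suffix 1 and -0.04 in suffix 2. Gp1ba, Gp1bb, Gp5, Gp9, Itga2b, Itgb3 and Selp are also in the platelet and megakaryocyte list, so the 2 lists are not separate readings. Selp, the P-selectin that is stored with von Willebrand factor in granules, stood at 59.1 against 19.0 CPM in suffix 1 and 139 against 156 CPM in suffix 2. Furin, the protease that processes it, had ratios of 2.12 (1.02 to 4.06) and 0.901 (0.646 to 1.27). Adamts13, which cleaves it in plasma, had no UMI. In the gate 4 of the 8 were past 1.5-fold higher and 1 lower in suffix 1, and none either way in suffix 2. Of all compared genes, 8.5% were higher and 13.6% lower in suffix 1, and 0.774% and 0.583% in suffix 2. In the ring the medians of the 8 were 0.13 and 0.38. There 3 were higher and 1 lower in suffix 1, and 2 higher and none lower in suffix 2. Of all compared genes in the ring, 6.42% and 1.45% were higher and 9.01% and 1.28% lower.

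Among 12 transcription factors of megakaryocyte and erythroid cells with enough UMIs, the medians were 0.01 in suffix 1 and 0.0047 in suffix 2. Gfi1b, a repressor needed for both lineages, stood at 86.4 against 25.8 CPM and at 48.4 against 31.7 CPM, with ratios of 3.35 (1.86 to 5.84) and 1.53 (1.06 to 2.25), but 1 cell held 52.6% of its UMIs in positive cells of suffix 1. Gata2 and Fli1 had intervals that included 1 in both suffixes. The ring gave medians of 0.34 and 0.23, and 5 and 2 of the 12 were past 1.5-fold higher and none lower, where 6.42% and 1.45% of all compared genes were higher. There Gata2, a factor of stem and progenitor cells, was at 1.86 (1.37 to 2.48) and 1.30 (1.15 to 1.46), and Fli1 at 1.16 (0.766 to 1.69) and 1.18 (1.02 to 1.36).

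Of 16 stem cell genes, all measured, 9 were 1.5-fold higher and 1 lower in suffix 1, where 8.5% and 13.6% of all compared genes were. None was higher or lower in suffix 2, where 0.774% and 0.583% of all were, so that a count of 0 is near the background. The medians were 0.61 and -0.04. In the ring they were 0.33 and 0.42, and 6 and 5 of the 16 were 1.5-fold higher, where 6.42% and 1.45% of all were. There 1 was lower in suffix 1, Ly6a at 0.543 (0.391 to 0.736), and none in suffix 2, where 9.01% and 1.28% of all were. In the gate Slamf1 stood at 50.0 against 12.3 CPM and at 71.8 against 51.7 CPM, ratios of 4.06 (1.78 to 8.74) and 1.39 (1.04 to 1.87), in the direction of the CD150 tag that chose the gate. Mycn, a proto-oncogene of the MYC family, was at 2.47 (1.80 to 3.35) and 1.47 (1.28 to 1.69). In suffix 1, 41 of its 56 UMIs in positive cells came from the 7 cells with 3 Vwf UMIs, at 456 CPM, and it stood at 114 CPM in cells with 2, 123 CPM in cells with 4 or more and 103 CPM in negative cells. Procr, Mecom and Mllt3 were higher in suffix 1 with intervals above 1, and at 0.976, 1.09 and 1.08 in suffix 2 with intervals that included 1.

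The pooled comparison gave its largest list median to genes known from old stem cells. Of 22 listed, 20 had 50 or more UMIs, and 17 were 1.5-fold higher pooled, where 1.28% of all compared genes were, with a median log2 ratio of 0.85. The study reports several of them in these samples, so that the list is not independent evidence of a direction. Within suffix 2 the median was 0.15 and 2 genes passed, Amotl2 at 1.96 (1.07 to 3.89) and Gstm2 at 2.31 (1.27 to 4.55), and within suffix 1 it was 1.02 with 13 genes. Of all compared genes, 0.774% passed in suffix 2 and 8.5% in suffix 1. Sult1a1, a sulfotransferase, stood at 223 against 63.3 CPM in suffix 1 and at 864 against 904 CPM in suffix 2. The Vwf-negative cells of the libraries thus stood far apart, and the pooled ratio of 2.04 came with ratios of 3.52 (2.47 to 4.97) and 0.956 (0.889 to 1.03). Clu, the chaperone clusterin, was at 6.50 (2.78 to 14.9) and 1.13 (0.949 to 1.36). Nupr1, a stress-response regulator, and Clca3a1, whose protein the tag reads, kept intervals above 1 in both, at 3.59 and 1.22 for Nupr1 and at 5.08 (1.31 to 17.6) and 1.30 (1.03 to 1.67) for Clca3a1. Wwtr1, the gene of TAZ, had 2 against 7 UMIs in suffix 1 and 81 against 24 in suffix 2, a ratio of 1.39 (0.872 to 2.29). In the ring, the medians of these 20 genes were 0.79 and 0.97, and 12 and 17 of them were past 1.5-fold higher, where 6.42% and 1.45% of all compared genes were.

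Of 10 progenitor genes listed, 4 had 50 or more UMIs, and 2 were 1.5-fold lower in suffix 1 (13.6% of all compared genes) and none in suffix 2 (0.583% of all). The medians were -0.60 pooled, -0.76 in suffix 1 and -0.28 in suffix 2. Cd34 stood at 36.4 against 225 CPM in suffix 1, a ratio of 0.162 (0.0693 to 0.322), and at 39.2 against 45.1 CPM in suffix 2, a ratio of 0.869 (0.624 to 1.23). Cd27, a costimulatory receptor of multipotent progenitors, was at 0.423 (0.244 to 0.689) and 0.761 (0.613 to 0.948), and Csf3r, the G-CSF receptor, at 0.700 (0.219 to 1.73) and 0.652 (0.467 to 0.916). In the ring, the medians of the 4 progenitor genes were -0.51 and -0.60. The 4 lymphoid priming genes with 50 or more UMIs had medians of -0.56 and -0.27 in the gate, and Ikzf1 (Ikaros) was at 0.375 (0.135 to 0.838) and 0.748 (0.561 to 1.003). The 5 myeloid priming genes had medians of -0.39 and -0.12, with Spi1 the only one past 1.5-fold in suffix 2. Of 11 erythroid priming genes, 2 had 50 or more UMIs, with medians of -1.02 in suffix 1 and 0.87 in suffix 2. Hbb-bt, a haemoglobin chain, was the gene past 1.5-fold in each, lower in suffix 1 with 0 against 57 UMIs and higher in suffix 2 with 270 against 32. Of all compared genes, 13.6% were lower in suffix 1 and 0.774% higher in suffix 2. Of the 12 genes of TAZ, TEAD and PU.1, 6 had 50 or more UMIs, with medians of 0.0078 and 0.25. Spi1 was past 1.5-fold lower in each suffix, where 13.6% and 0.583% of all compared genes were. Amotl2 was past 1.5-fold higher in suffix 2, where 0.774% were. In suffix 1 it had 3 against 2 UMIs, under the minimum of 10 that the compared genes met, so that its value there is not read. In suffix 2, Tead2 had 82 against 27 UMIs, and Yap1 had 1 UMI in each class. In the ring the medians in suffix 1 and suffix 2 were -0.19 and -0.36 for lymphoid priming genes, -0.40 and -0.46 for myeloid priming genes, -0.35 and 0.15 for erythroid priming genes, and 0.01 and 0.31 for the genes of TAZ, TEAD and PU.1.

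**Figure D5:**
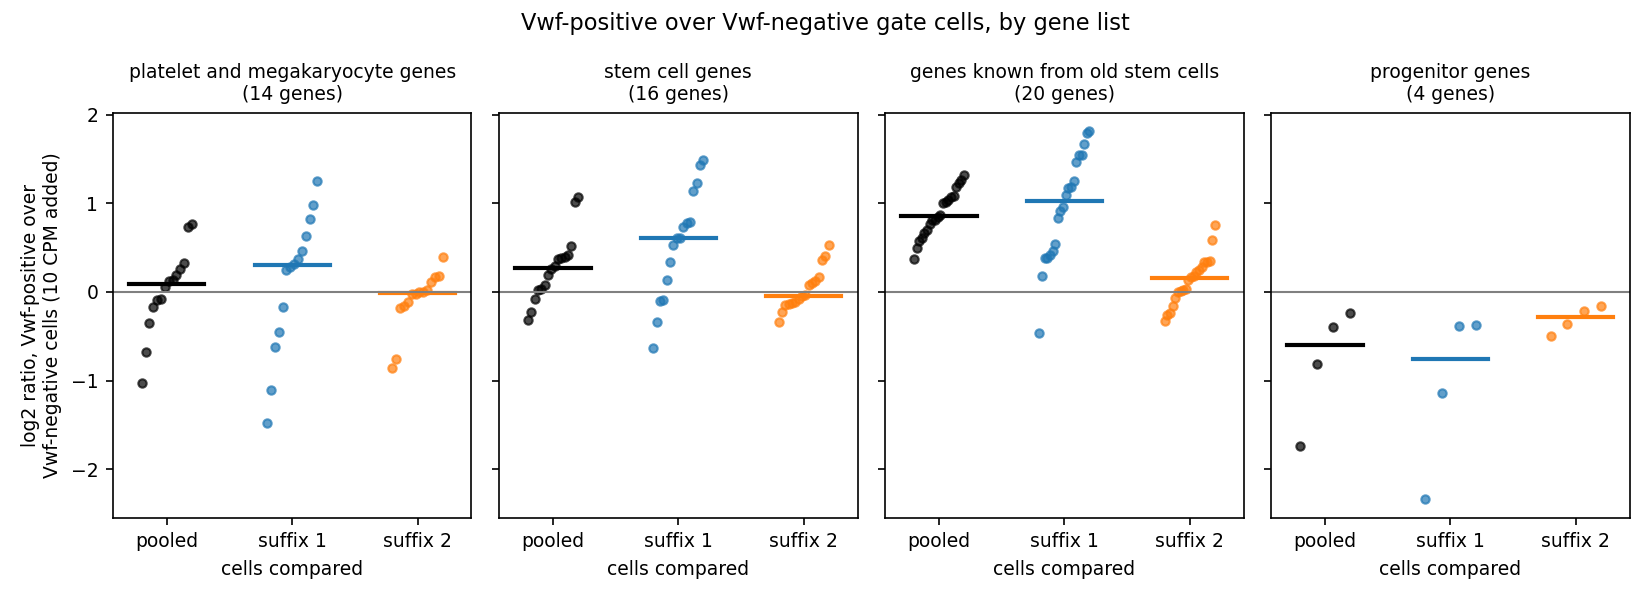
Log2 CPM ratio (10 CPM added) of Vwf-positive over Vwf-negative gate cells for each measured gene (points) of 4 lists, with the list's median (line), for both libraries pooled and within each suffix. The median of genes known from old stem cells is 0.85 pooled and 0.15 within suffix 2.

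S and G2/M genes had medians of -0.32 in suffix 1 and 0.20 in suffix 2. The higher levels of mitotic genes in positive cells of suffix 1 came from 1 of 17 cells, which held all 26 UMIs of Mki67 and 154 of the 156 UMIs of 6 mitotic genes. Interferon-stimulated genes had medians of 0.22 and 0.0092. Of 9 MHC genes with 50 or more UMIs, 5 were past 1.5-fold lower in suffix 1, where 13.6% of all compared genes were. None was in suffix 2, where 0.583% of all were, so that a count of 0 is near the background. The medians were -0.74 and -0.02. The 5 were the class II genes H2-Aa, H2-Ab1, H2-Eb1 and H2-DMa and Cd74, the class II invariant chain. In the ring the MHC medians were -0.18 and -0.40, and 1 and 3 of the 9 were past 1.5-fold lower, where 9.01% and 1.28% of all were. In the gate Cd74 was at 0.554 (0.380 to 0.785) and 0.844 (0.757 to 0.942). Immediate early genes had medians of -0.10 and 0.04, and G1 cyclins and CDK inhibitors medians of 0.62 and -0.0080. Ring medians were -0.20 and -0.46 for S and G2/M genes, -0.03 and -0.18 for interferon-stimulated genes, 0.09 and 0.14 for immediate early genes, and 0.28 and -0.02 for G1 cyclins and CDK inhibitors.

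Vwf is also an endothelial gene, so endothelial markers were read in the same classes. Of 12, 8 had 50 or more UMIs, with medians of 0.29 and 0.01, and their summed level was 641 against 385 CPM in suffix 1 and 742 against 678 CPM in suffix 2. Ramp2, a receptor-modifying protein, had ratios of 7.38 (2.81 to 19.1) and 1.45 (1.20 to 1.76), with 60.0% of its UMIs in positive cells of suffix 1 from 1 cell, and Tie1, a receptor kinase, 1.54 (0.875 to 2.56) and 1.84 (1.30 to 2.65). In the gate 2 of the 8 were past 1.5-fold higher in suffix 1 and 1 in suffix 2, where 8.5% and 0.774% of all compared genes were. In the ring 1 and 3 of the 8 were higher, where 6.42% and 1.45% of all were, with medians of -0.07 and 0.11. There 1 was lower in suffix 1 and none in suffix 2, where 9.01% and 1.28% of all were. In the ring of suffix 2, Cldn5, a tight junction protein, had 187 against 34 UMIs, a ratio of 12.9 (8.91 to 19.2), with 47.1% of the 34 in 1 cell. Ramp2 stood there at 144 against 21.8 CPM, with 287 against 102 UMIs, and in the ring of suffix 1 Cldn5 had 0 against 8 UMIs and Ramp2 1 against 4. Summed markers of neutrophils, of T and NK cells, of macrophages, of stroma and of mast cells lay between 0 and 17.4 CPM in each class and suffix. B and plasma cell markers held 45.5 against 44.8 CPM in suffix 1 and 145 against 131 CPM in suffix 2. Erythroblast markers, almost all from Hbb-bt, held 0 against 31.9 CPM and 95.2 against 26.7 CPM. Their part in the other differences was not tested.

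Beyond the lists, and chosen after their values were seen, Zg16 (a secreted lectin) had 85 UMIs in Vwf-positive and 6 in Vwf-negative cells of suffix 2, a ratio of 5.83 (2.57 to 16.3), and none in either class of suffix 1. Kcnb2, a potassium channel subunit, had 67 against 7 UMIs there. Cavin2, a protein of caveolae, was at 4.96 (2.78 to 8.67) and 1.45 (1.23 to 1.72), and Apoe, apolipoprotein E, at 3.36 (2.92 to 3.85) and 1.23 (1.15 to 1.32). Cxcl10 had 367 UMIs in positive cells of suffix 2 against 17, of which 1 cell held 91.6%.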

How the data were processed

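LSK cells of old and young C57BL/6JRj mice were profiled by CITE-Seq with the Chromium 3′ v3 chemistry, 1 library per age group. The authors aligned reads with Cell Ranger 3.1.0 (mm10) and normalised the libraries against each other when combining them, so that the deposited counts are UMIs per gene and cell after that step. The authors counted antibody tags with CITE-seq-Count and deposited them as log10 values, and medians are given here on that scale or as tag counts. No column of other samples was present (0). No file pairs a barcode suffix with an age, so the matrix was read as 1 sample and no test was made.

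Cells with under 10% mitochondrial UMIs and over 1500 genes were kept. Of 4573 cells with tags, 3986 were kept, and the gate percentiles were taken over these. UMIs were summed per class and divided by the class total (CPM). Genes needed 50 UMIs over the compared cells and 10 within each suffix, and lists used the former limit. Genes at 1.5-fold or more (10 CPM added) pooled and within both suffixes were ranked by the smaller within-suffix log2 ratio, and up to 15 higher and 10 lower ones were named, beside members of 16 lists. The members and lists were chosen with earlier results of these data known. Total UMIs per class ran from 219815 to 2910221, which sets the width of the intervals. They cover counting error only. Doublets were called with scrublet in scanpy 1.11.5 (expected rate 0.06) and kept. Calculations used Python 3.11.15, NumPy 2.4.6, pandas 2.3.3 and SciPy 1.17.1, and the procedure was tested on simulated counts. The alternatives changed the gate, the cell filter, the Vwf limit, the depth, the scaling, the added CPM, the gene minimum and the cells summed. Some members of the lists are counted in the medians but not reported here by name.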

Additional observations from a re-analysis of the deposited data

Results flagged for a closer look

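In 6 of 142 genes of the lists, the counting intervals of the Vwf-positive over Vwf-negative CPM ratio lay on opposite sides of 1 in the 2 suffixes. Of all 8919 compared genes, 25 (0.28%) did so. The difference between the suffixes was not tested. Gda, a guanine deaminase, had a ratio of 2.08 (1.21 to 3.44) in suffix 1 and 0.844 (0.727 to 0.981) in suffix 2. Hbb-bt had 0 against 57 UMIs in suffix 1, a ratio of 0 with an upper limit of 0.543, and 270 against 32 UMIs in suffix 2, a ratio of 3.47 (2.40 to 5.18). Cdkn1c, the cell cycle inhibitor p57, had 3.13 (2.01 to 4.76) and 0.800 (0.650 to 0.989). Jun, an immediate early transcription factor, had 0.651 (0.508 to 0.825) and 1.23 (1.11 to 1.38), and 1 cell held 41.3% of its UMIs in positive cells of suffix 1. Ifitm1, an interferon-induced membrane protein, had 1.26 (1.14 to 1.41) and 0.917 (0.880 to 0.956), and H2-K1, an MHC class I chain, had 1.21 (1.11 to 1.31) and 0.945 (0.908 to 0.984).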

How the results depend on the processing

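The reported values were 5 genes higher and 11 lower in Vwf-positive cells, a Vwf-positive share of 38.4%, list medians of 0.09 (platelet), 0.85 (old stem cell) and -0.60 (progenitor), and a CLCA3A1 difference of 0.54. Of 128 values of these under the alternatives, 74 stayed within their limits and 54 moved. With 1 or more Vwf UMIs as positive, 2 genes were higher and 3 lower and the share was 57.8%, and with 3 or more 13 and 29 and 21.6%. Thinning gave 13 and 29 genes, a share of 21.5% and an old stem cell median of 0.57. Suffix 1 alone gave 758 and 1210 genes and a share of 9.88%. Suffix 2 alone gave 69 and 52 genes, a share of 51.2%, medians of 0.15 (old stem cell) and -0.28 (progenitor) and a CLCA3A1 difference of 0.10. Stratified by suffix (Mantel-Haenszel), 11 genes were higher and the old stem cell median was 0.21. Totals without mitochondrial and ribosomal protein UMIs gave 15 and 25 genes, adding 1 CPM 44 and 80, and adding 30 CPM 0 and 3. With no minimum of UMIs 10 genes were higher, and with 200 or more UMIs 1 was higher and 5 lower. The gate at the 90th and 10th percentiles gave 30 and 26 genes, a progenitor median of -0.996 and a share of 45.2%. At the 50th percentiles it gave 52 and 64 genes, a progenitor median of -0.95, a share of 24.0% and a CLCA3A1 difference of 0.87, and Pf4 turned to a log2 ratio of 1.59. Percentiles over both suffixes gave 6 lower genes, medians of 0.40 (old stem cell) and -0.40 (progenitor), a CLCA3A1 difference of 0.19 and 1.69 for Pf4. Under 5% mitochondrial UMIs and over 2500 genes, suffix 1 kept 0 positive cells and suffix 2 kept 15, so that no counts of genes are given. The share was then 26.3%, the medians 1.12 (platelet) and 1.59 (old stem cell), the CLCA3A1 difference 0.87, and the log2 ratios turned to 6.78 for Pf4, 0.051 for Spi1 and 0.29 for Rabgap1l. The ring cells, added after seeing the data, gave 49 and 36 genes, medians of 0.57 (platelet), 1.25 (old stem cell) and -0.84 (progenitor), a share of 14.9%, a CLCA3A1 difference of 0.97 and 2.72 for Pf4. Of the named genes' log2 ratios, 270 were within their limits, 60 moved and these 6 reversed. Pooled log2 ratios that no longer reached 1.5-fold were, under thinning, 0.32 for Pfkp, -0.39 for Il17ra and -0.55 for Pf4. With percentiles over both suffixes they were 0.44 for Chst2, -0.27 for Serpinb1a, -0.48 for Rabgap1l, -0.49 for Ikzf2 and -0.43 for Ms4a6c. With 30 CPM added they were 0.48 for Gimap4, 0.50 for Pfkp, -0.48 for Ms4a6c, -0.42 for Tgfbi and -0.53 for Tnfrsf18. With the narrower gate Spi1 was at -0.53, with the stricter cell filter Chst2 was at 0.37 and Il17ra at -0.37, and in the ring Il17ra was at -0.44, Rabgap1l at -0.41 and Tgfbi at -0.54. The cause was not tested.

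No paired analysis was possible because each age group is 1 library and the suffixes are not paired with an age. For the same reason there is no replicate to leave out. The 17 positive cells of suffix 1 limit what can be read within that library.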
